A study of Mus musculus with 6 samples.

Results

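The 40 mitotic genes described here encode the kinases, cyclins, checkpoint proteins, kinesins, spindle proteins and chromosome proteins that carry a cell from G2 through cytokinesis. They were chosen by name, as rows of an RPKM table (reads per kilobase of transcript, scaled to the reads on genes of each library), and all 40 were found among its 20856 genes with values. RNA-seq was made from 6 cell lines derived from mouse liver tumors, and the question was if lines that keep Trp53 hold lower mitotic transcripts than lines in which it was targeted.

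All 6 lines came from C57BL/6 mice whose hepatocytes had received, by hydrodynamic tail vein injection, a transposon with Myc cDNA and a px330 plasmid for transient Cas9 and guide RNA. In 3 lines, Myc;sgp53/Cas9 in the labels, the guides were directed at Trp53 (sgTrp53 lines), and in 3 lines, Myc;sgMll3/Cas9, at Kmt2c, the gene of MLL3 (sgKmt2c lines). None was treated and all carry the Myc transgene, so no line here has both Trp53 and Kmt2c untargeted. The lines had been passaged until visibly free of fibroblasts and were grown in serum on collagen, which limits them as a model of the tumor. The mice injected for the study were females bought at 8 to 10 weeks of age. The labels name sgKmt2c replicates 2 and 3 as 2A and 2T1. The study describes its lines as independent and they count as separate here, but the labels do not say if these 2 came from the same mouse, so the calls below are also given with both as a single sample.

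p53 does not bind most mitotic promoters itself. It induces Cdkn1a (p21), an inhibitor of cyclin-dependent kinases, and with those kinases inhibited the pocket proteins p107 and p130 stay unphosphorylated and assemble with E2F4, DP proteins and the MuvB core into the repressor complex DREAM. DREAM reaches late cell cycle genes through the CHR, a short promoter element read by the MuvB subunit LIN54, and G1/S genes mainly through E2F sites. In cycling cells the MuvB core instead joins B-MYB and then FOXM1 and activates the CHR genes, and NF-Y, bound to CCAAT boxes close by, is required for most of them.

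Promoter sequences were not read to choose the genes. The genes were, however, listed as mitotic genes repressed through p53 and DREAM, which reaches such genes through the CHR. A high share of CHR letters among them is therefore no independent result. RefSeq promoters on GRCm38.p6, from 250 bases before to 50 after the transcription start, were matched for 33 of the 40 genes, which together have 37 promoters. The CHR letters TTTGAA or TTCGAA, on either strand, were in 27 of the 37 promoters (73.0%) against 19.2% of all 32851 promoters of that length. With the first base of the match within 50 bases of the start, the share was 62.2% against 5.31%. CCAAT box letters (CCAAT or ATTGG) were in 31 promoters (83.8%) against 37.4% of all, and CHR and CCAAT box letters stood together in 25 (67.6%) against 7.52%. The letters TTTAAA or TTTCAA were counted apart, as other variants of the CHR, and can overlap a CHR match by 5 bases. They were in 20 promoters (54.1%) against 25.3%. E2F letters (TTCCCGC or TTCGCGC or TTGCCGC or TTGGCGC) were in 6 (16.2%) against 9.57%. Among 37 promoters of G1/S genes the shares were the other way round, 27.0% with CHR letters and 62.2% with E2F letters. These are matches of letters and not binding sites.

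Promoter stretches of 180 bases, from 130 before to 50 after the start, are shown for genes with CHR letters that the results below turn on, with the CHR and CCAAT box letters in capitals. Ccnb2 (chr9:70421505-70421684, minus strand), Bub1b (chr2:118598081-118598260, plus), Cdk1 (chr10:69352863-69353042, minus), Cdc20 (chr4:118437294-118437473, minus) and Top2a (chr11:99024140-99024319, minus) differ in how many CCAAT boxes precede a CHR match. In the printed bases the CHR matches lie from 120 bases before the start to 40 after it. Ccnb2, Bub1b and Top2a have further CHR matches ahead of the printed bases, up to 188 bases before the start (Bub1b).
Ccnb2: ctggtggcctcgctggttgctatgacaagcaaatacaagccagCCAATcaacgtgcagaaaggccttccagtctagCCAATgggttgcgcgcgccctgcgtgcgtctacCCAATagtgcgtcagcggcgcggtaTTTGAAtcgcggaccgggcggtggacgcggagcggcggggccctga
Bub1b: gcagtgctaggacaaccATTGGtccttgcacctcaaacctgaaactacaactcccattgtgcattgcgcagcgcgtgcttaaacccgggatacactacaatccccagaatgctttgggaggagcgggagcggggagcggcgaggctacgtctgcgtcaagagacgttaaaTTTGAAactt
Cdk1: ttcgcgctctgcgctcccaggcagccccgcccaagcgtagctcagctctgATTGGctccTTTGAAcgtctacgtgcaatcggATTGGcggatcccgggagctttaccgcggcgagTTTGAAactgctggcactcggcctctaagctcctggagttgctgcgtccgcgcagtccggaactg
Cdc20: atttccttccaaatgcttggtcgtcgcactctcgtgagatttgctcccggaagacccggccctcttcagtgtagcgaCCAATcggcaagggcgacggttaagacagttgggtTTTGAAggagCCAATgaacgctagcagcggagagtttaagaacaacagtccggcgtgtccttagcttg
Top2a: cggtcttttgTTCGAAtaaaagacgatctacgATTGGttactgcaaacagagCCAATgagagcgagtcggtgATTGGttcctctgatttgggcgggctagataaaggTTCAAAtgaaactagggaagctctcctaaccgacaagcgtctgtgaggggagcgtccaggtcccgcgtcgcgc

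The next 3 are shown because their values had the opposite sign or their promoter lacks these letters. Nusap1 (chr2:119618168-119618347, plus) has neither CHR nor CCAAT box letters in this stretch. Gtse1 (chr15:85859577-85859756, plus) has 3 CCAAT boxes and neither TTTGAA nor TTCGAA. It does have the variant TTTAAA, left in small letters, 12 bases before and 30 after the start. Ckap2 (chr8:22185770-22185949, minus) has CHR and CCAAT box letters, with the CHR 101 bases before the start and ahead of the CCAAT box.
Nusap1: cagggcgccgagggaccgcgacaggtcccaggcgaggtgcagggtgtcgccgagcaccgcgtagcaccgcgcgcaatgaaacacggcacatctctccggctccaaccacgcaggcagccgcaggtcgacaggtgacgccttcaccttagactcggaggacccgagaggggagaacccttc
Gtse1: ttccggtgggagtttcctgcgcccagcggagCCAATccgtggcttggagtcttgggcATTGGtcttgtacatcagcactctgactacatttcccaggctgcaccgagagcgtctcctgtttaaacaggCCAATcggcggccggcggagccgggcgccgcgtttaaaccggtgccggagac
Ckap2: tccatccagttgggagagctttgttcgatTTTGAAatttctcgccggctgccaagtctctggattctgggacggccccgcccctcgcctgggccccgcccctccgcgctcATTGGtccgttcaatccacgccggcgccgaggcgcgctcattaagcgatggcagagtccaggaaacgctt

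**Figure D1:**
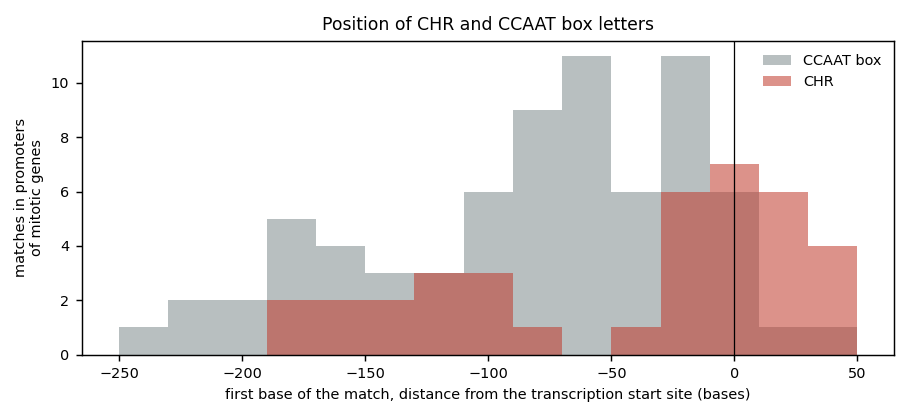
Position of CHR letters (red) and CCAAT box letters (grey) in the 37 promoters of the mitotic genes: the horizontal axis is the distance of the first base of a match from the transcription start in bases, and the vertical axis the number of matches in bins of 20 bases. CCAAT box letters peak before the start and most CHR letters lie around it, where 62.2% of the promoters hold a CHR match within 50 bases.

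Before the mitotic genes, the transcripts of Trp53 and of p53 targets were read in each line. The RNA level of Trp53 alone does not show if its protein works. Trp53 was at 17.2, 17.6 and 19.4 RPKM in sgTrp53 replicates 1, 2 and 3 and at 92.2, 124 and 121 in sgKmt2c replicates 1, 2 and 3, so the groups did not overlap (log2 fold change 2.56, limma adjusted p = 0.0140). That call was kept without sgKmt2c replicate 1 (adjusted p = 0.0118) and lost when any other line was left out (0.0766 to 0.108) or with sgKmt2c replicates 2 and 3 as a single sample (0.104). Cdkn1a was at 17.3, 7.54 and 36.1 RPKM in the sgTrp53 lines and at 295, 217 and 261 in the sgKmt2c lines, each of which was above all sgTrp53 lines (log2 fold change 3.84, limma adjusted p = 0.0680). Myc, the shared oncogene, overlapped between the genotypes, at 98.1, 60.1 and 47.1 against 90.9, 90.5 and 57.0 RPKM. Kmt2c overlapped too, at 24.2, 18.4 and 19.2 against 19.7, 24.97 and 9.51 RPKM. Small Cas9 insertions and deletions need not change a transcript's level, so Kmt2c RNA does not check the label.

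The 28 p53-induced genes were listed with earlier results of these data known, so their counts describe these lines and are no independent test. Of the 28, 27 had a positive fold change, against 42% of all genes tested, and the median log2 fold change was 1.38. In limma 3 of them rose with adjusted p under 0.05, Ccng1 (cyclin G1), Psrc1 and Eda2r, and 19 passed an unadjusted p under 0.05. Over all 11617 genes tested, the share that passed the adjusted threshold upward was 0.0516% and the share that passed the unadjusted one upward was 3.25%. Without sgKmt2c replicate 1, 2 of the 3 kept the adjusted call, and without any one of the other 5 lines none of the 28 had it. With sgKmt2c replicates 2 and 3 as a single sample none of the 28 had it either (lowest limma adjusted p = 0.0796). By line, the median p53-induced gene lay above the mean of the sgTrp53 lines by 1.54, 1.46 and 1.41 on the log2(RPKM + 1) scale in sgKmt2c replicates 1, 2 and 3. These 3 medians were close to each other, but some single genes of the list differed more between the 3 lines.

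The libraries held 5312182 to 6878625 reads on genes in the sgTrp53 lines and 3680068 to 4704539 in the sgKmt2c lines, each of them shallower than every sgTrp53 line, and each value of a mitotic gene rests on 58 to 5437 reads. The cells are labelled as liver tumor lines, and the hepatocyte defining gene Alb (albumin) was at only 0.644 to 4.36 RPKM in all 6. sgKmt2c replicate 1 stood apart in hepatocyte, epithelial and fibroblast markers. The 10 hepatocyte markers summed to 1234 RPKM in it, against 94.0 and 234 in the other 2 sgKmt2c lines and 14.4 to 39.1 in the sgTrp53 lines. These sums rest mostly on 1 gene in each sgKmt2c line, Hnf4a at 1186 RPKM (on a listed transcript of 431 bases) in replicate 1 and at 169.9 in replicate 3, and Ass1 at 89.9 in replicate 2. Without those 2 genes the sums were 45.6, 3.496 and 37.0 RPKM in sgKmt2c replicates 1, 2 and 3 and 8.21 to 13.1 in the sgTrp53 lines, and 6 of the 10 markers were highest in replicate 1. Its 4 epithelial markers summed to 4145 RPKM against 44.7 to 860 elsewhere, and its 10 fibroblast markers to 0.282 RPKM against 15.1 to 1093 elsewhere. The 8 hepatoblast and tumor markers summed to 1919, 89.4 and 1311 RPKM in sgKmt2c replicates 1, 2 and 3 and to 107 to 734 in the sgTrp53 lines. In replicate 1 most of the sum was Krt19 (1866 RPKM) and in replicate 3 Dlk1 (1077 RPKM), so the 2 high sums rest on different genes. In sgKmt2c replicates 1 and 3 alike, 3 of the 8 had their highest value. sgTrp53 replicate 2 had the highest fibroblast sum (1093, of which Col3a1 made 814) and the lowest epithelial sum (44.7). The 10 immune markers summed to 23.5 to 62.9 RPKM in the sgTrp53 lines and 5.51 to 16.3 in the sgKmt2c lines, with 2 of them at 0 in every line, and the 6 endothelial markers to at most 0.302. The part of these differences in the results below was not tested, and the main results are given with and without sgKmt2c replicate 1.

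The mitotic genes lay lower in the sgKmt2c lines on average, but none of the 40 passed the test across all genes. The log2 fold change was negative for 36 of them, against 58% of all genes tested, and its median was -0.51, against -0.09 for all genes, with a range from -1.02 (Kif2c and Kif20a) to 0.86 (Gtse1). The other 4, Gtse1, Ckap2, Anln and Mki67, were positive (all genes 42%). With limma and Benjamini-Hochberg adjustment over all genes, 0 of the 40 were lower (all genes 0.0775%) and 0 higher (0.0516%) at adjusted p under 0.05, and the lowest adjusted p was 0.328, for Ccnb2. At an unadjusted p under 0.05 there were 6 lower genes, Ccnb2, Nusap1, Dlgap5, Bub1b, Ect2 and Kif20a (15% against 5.34% of all genes), and 1 higher gene, Gtse1 (2.5% against 3.25%). limma voom on the reads recovered from the RPKM values also gave 0 lower and 0 higher members at adjusted p under 0.05. With median-of-ratios size factors the unadjusted counts were 5 lower and 1 higher, while all genes went from 620 lower and 377 higher to 475 and 485. All 3 sgKmt2c lines lay under all 3 sgTrp53 lines in 7 genes (17.5% against 10.4% of all genes) and above them in 1 (2.5% against 5.72%). Since these are bulk lines, a smaller share of cells in mitosis and less mitotic RNA per dividing cell cannot be told apart.

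The 3 sgKmt2c lines were not alike, and the difference from the sgTrp53 lines was widest in replicate 1. In sgKmt2c replicate 1 the median mitotic gene was at 48.7% of the mean of the sgTrp53 lines, and 37 of the 40 lay below every sgTrp53 line (92.5% against 44.6% of all genes). In sgKmt2c replicate 2 the median was at 78.1%, and 27 lay below every sgTrp53 line (67.5% against 35.4%). In sgKmt2c replicate 3 it was at 101.4%, and 8 lay below every sgTrp53 line (20% against 29.6%). On the log2(RPKM + 1) scale these medians were -0.97, -0.33 and 0.02 from the sgTrp53 mean. Over all genes tested the median gene was at 87.5%, 93.8% and 96.5% of the sgTrp53 mean in sgKmt2c replicates 1, 2 and 3. In 30 of the 40 genes replicate 1 was the lowest and replicate 3 the highest of the 3 sgKmt2c lines, an order that 23.6% of all genes had, and in 32 genes replicate 1 was the lowest of all 6 lines (80% against 35.9%).

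The mean level over the 40 genes was 5.70, 5.69 and 5.74 on the log2(RPKM + 1) scale in the sgTrp53 lines and 4.71, 5.34 and 5.77 in the sgKmt2c lines. The spread between lines was thus 0.0276 (SD, n = 3) among the sgTrp53 lines and 0.530 (SD, n = 3) among the sgKmt2c lines, and the level of sgKmt2c replicate 3 was the highest of the 6. Without sgKmt2c replicate 1, 28 in place of 36 fold changes were negative (54.4% of all genes) and 12 positive (45.6%), and the median went from -0.51 to -0.16 (all genes -0.04). The unadjusted counts were then 4 lower (5.31% of all genes) and 2 higher (3.94%), the adjusted counts were 0 lower (0.0258%) and 0 higher (0.043%) in limma, and 7 genes lay under (15.9%) and 2 above (10.9%) all sgTrp53 lines. Without sgKmt2c replicate 3 the median was -0.76 (all genes -0.10), with 17 genes lower at an unadjusted p under 0.05 (8.52% of all genes) and 0 at an adjusted one in limma, which no gene of the table passed then.

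**Figure D2:**
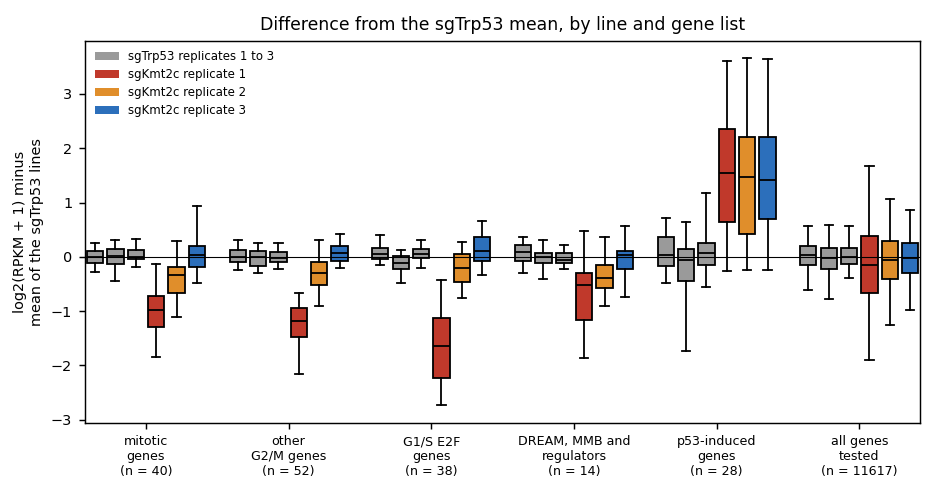
Difference of each line from the mean of the 3 sgTrp53 lines, on the log2(RPKM + 1) scale, for the mitotic genes, the related lists and all genes tested; boxes span the quartiles over genes with the median as a line, and whiskers the 5th to 95th percentile. For the mitotic genes the medians of sgKmt2c replicates 1, 2 and 3 are -0.97, -0.33 and 0.02, while the p53-induced genes lie at 1.54, 1.46 and 1.41.

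**Figure D3:**
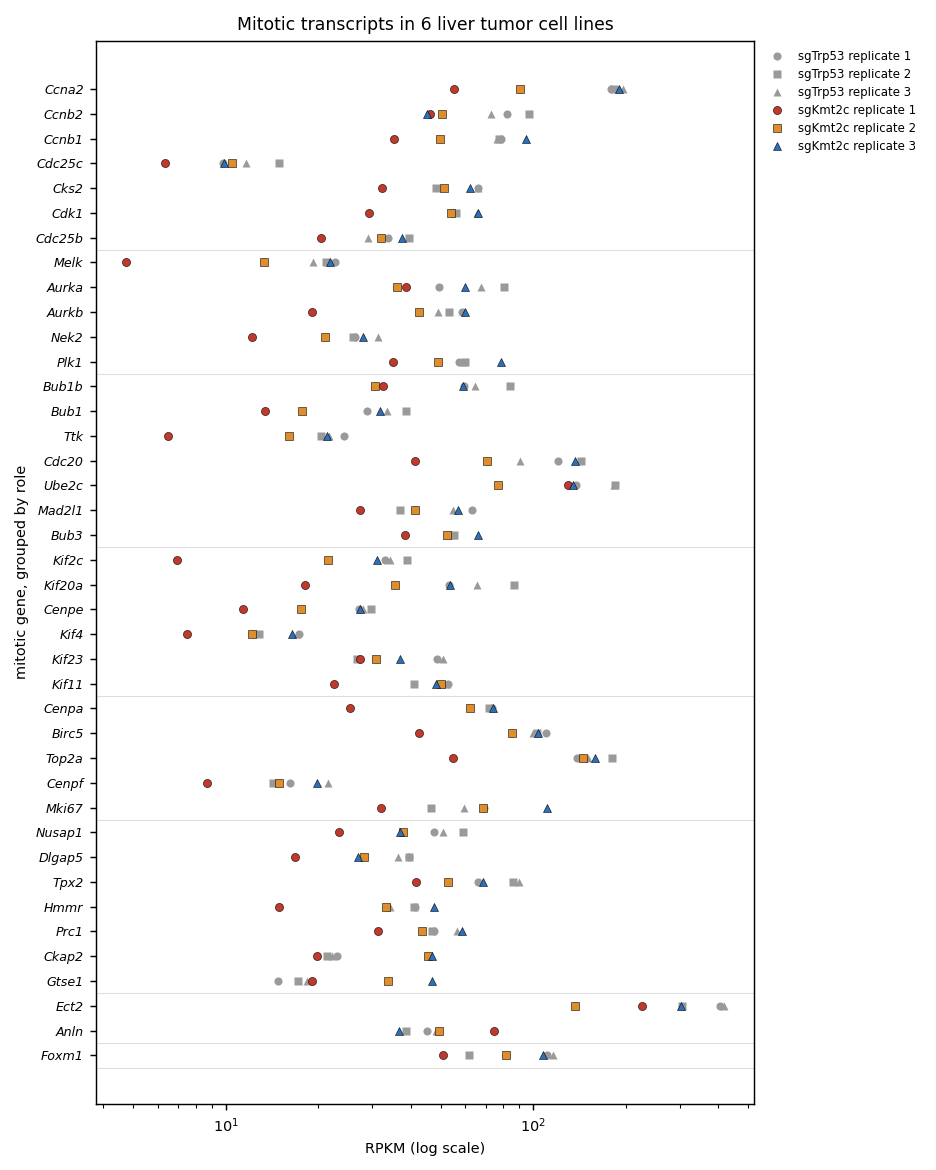
RPKM on a log scale of each of the 40 mitotic genes in the 6 lines, in blocks by role, with grey symbols for the sgTrp53 lines and red, orange and blue for sgKmt2c replicates 1, 2 and 3. The red circle is the leftmost symbol in 32 of the 40 rows, and the blue triangle lies left of all grey symbols in 8 and right of them in 11.

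Cdk1, its cyclins and the phosphatases that switch it on form the entry step of mitosis. All 7 genes of this group had a negative fold change (median -0.42), and without sgKmt2c replicate 1 this held for 5 (median -0.17). Ccnb2, cyclin B2, had the smallest p of the 40 mitotic genes. The gene (ENSMUSG00000032218) lies at chr9:70407689-70421554 of GRCm38, and its levels were 82.0, 96.7 and 72.8 RPKM in sgTrp53 replicates 1, 2 and 3 and 46.0, 50.3 and 45.1 in sgKmt2c replicates 1, 2 and 3. All 3 sgKmt2c lines were thus at 53.8% to 60.0% of the sgTrp53 mean, and here the 3 lines were alike (83.9 ± 12.1 against 47.1 ± 2.81, SD, n = 3). The log2 fold change was -0.81 ± 0.182 (SE), with a 95% interval from -1.24 to -0.38 and limma adjusted p = 0.328, and without sgKmt2c replicate 1 it was -0.79 with adjusted p = 0.350. An exact permutation test over the 6 lines gave a two-sided p = 0.1, the smallest that 3 against 3 can give, as it did for each of the 8 genes whose groups did not overlap. RefSeq lists a pseudogene, Ccnb2-ps, which was at 0.0924 to 1.06 RPKM in these lines, and reads that both copies share were not separated here.

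Ccnb1, cyclin B1, was at 78.7, 77.3 and 76.0 RPKM in the sgTrp53 lines and at 35.4, 49.6 and 94.6 in the sgKmt2c lines. Its sgKmt2c lines enclosed the sgTrp53 lines, 2 below and 1 above, unlike those of cyclin B2. Cdk1 itself, the kinase that both cyclins activate, was at 54.4, 56.1 and 65.8 RPKM against 29.3, 54.0 and 66.4, so that sgKmt2c replicate 1 lay far below the sgTrp53 lines and replicate 2 just below them. Its log2 fold change was -0.30 with a 95% interval from -1.06 to 0.45, and 0.032 without that line.

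Ccna2, cyclin A2, which works from S phase into early mitosis, had one of the 3 lowest fold changes (-0.91, limma adjusted p = 0.608; without sgKmt2c replicate 1 -0.50). Its levels were 179, 183 and 196 RPKM in the sgTrp53 lines and 55.4, 90.6 and 190.1 in the sgKmt2c lines, so replicates 1 and 2 lay far below the narrow range of the sgTrp53 lines and replicate 3 lay inside it. Part of the gene overlaps Exosc9 on the genome, and how the counting treated strand is not given in the sources used here. The phosphatases that activate Cdk1 overlapped between genotypes. Cdc25b was at 33.8, 39.3 and 28.9 against 20.3, 32.1 and 37.6 RPKM. Cdc25c, the lowest of the group, was at 9.80, 14.9 and 11.7 against 6.34, 10.5 and 9.88 RPKM. Only sgKmt2c replicate 1 was below all sgTrp53 lines in both phosphatases. Cks2, a small subunit of the kinase complex, had a log2 fold change of -0.34.

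The 5 mitotic kinases had a median log2 fold change of -0.54 (-0.19 without sgKmt2c replicate 1, with 4 negative). All 5 lay below every sgTrp53 line in sgKmt2c replicate 1 (44.6% of all genes) and in replicate 2 (35.4%), and 0 did in replicate 3 (29.6%). Plk1, which drives centrosome maturation and mitotic exit, was at 57.5, 59.8 and 58.9 RPKM in the sgTrp53 lines and at 35.0, 48.9 and 78.5 in the sgKmt2c lines. Its replicate 3 was above all sgTrp53 lines, and the log2 fold change was -0.19. Aurka, the centrosome and spindle pole Aurora kinase, was at 49.4, 80.3 and 67.6 against 38.6, 36.1 and 59.9 RPKM. Aurkb, the Aurora kinase of the chromosomal passenger complex, was at 58.7, 53.4 and 49.1 against 19.1, 42.4 and 59.8 RPKM. In both Aurora genes replicate 3 was inside or above the sgTrp53 range and the groups overlapped (log2 fold changes -0.55 and -0.54, limma adjusted p = 0.630 and adjusted p = 0.719). Nek2, a centrosome kinase, and Melk had log2 fold changes of -0.50 and -0.83, and Melk, at 22.6% of the sgTrp53 mean in sgKmt2c replicate 1, was at 104% in replicate 3 and had a log2 fold change of -0.28 without replicate 1.

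The spindle checkpoint holds the anaphase-promoting complex, a ubiquitin ligase, in check until all kinetochores are attached. The 7 genes of this group had a median log2 fold change of -0.65, and 6 of them were still negative without sgKmt2c replicate 1 (median -0.24). Bub1b, which encodes BUBR1 of the checkpoint complex, lies at chr2:118598211-118641591 and was at 59.5, 84.2 and 64.9 RPKM in the sgTrp53 lines and at 32.5, 30.7 and 59.1 in the sgKmt2c lines. The groups did not overlap, although sgKmt2c replicate 3 and sgTrp53 replicate 1 nearly touched (log2 fold change -0.80 ± 0.299 SE, limma adjusted p = 0.554; without sgKmt2c replicate 1 -0.68, adjusted p = 0.594). Bub1, the kinase that recruits it, was at 28.8, 38.5 and 33.5 against 13.4, 17.8 and 31.7 RPKM, with replicate 3 again inside the sgTrp53 range (log2 fold change -0.73, limma adjusted p = 0.597).

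Cdc20, the activator of the complex that the checkpoint inhibits, was at 120.1, 144 and 90.7 RPKM in the sgTrp53 lines and at 41.3, 70.5 and 136 in the sgKmt2c lines. Ube2c, the ubiquitin-conjugating enzyme of the complex, was at 138, 184 and 183 against 129.7, 76.9 and 135 RPKM. It was one of the 7 genes without overlap, and one of 4 in which sgKmt2c replicate 2, not 1, was the lowest of the 3 (log2 fold change -0.59, limma adjusted p = 0.601). Bub3, a checkpoint protein, had one of the smallest differences, at 54.0, 55.1 and 54.7 against 38.2, 52.3 and 66.1 RPKM, and its log2 fold change was -0.10 with a 95% interval from -0.65 to 0.46. The whole gene lies in the span of Fgfr2, which bears on its reads where strand is not used. Ttk (MPS1) and Mad2l1 (MAD2) had log2 fold changes of -0.70 and -0.32.

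Kinesins move chromosomes and slide spindle microtubules. All 6 had a negative fold change (median -0.53), 5 without sgKmt2c replicate 1 (median -0.31). Kif2c, the kinesin MCAK that depolymerizes microtubules at kinetochores, was at 33.1, 38.8 and 34.2 RPKM in the sgTrp53 lines and at 6.94, 21.5 and 31.1 in the sgKmt2c lines. The groups did not overlap, and sgKmt2c replicate 1 was at 19.6% of the sgTrp53 mean against 88.0% in replicate 3 (log2 fold change -1.02 ± 0.50 SE, limma adjusted p = 0.621; without sgKmt2c replicate 1 -0.43). Kif20a (MKLP2), which carries the passenger complex to the central spindle, was at 53.4, 86.7 and 65.5 against 18.1, 35.6 and 53.7 RPKM. Replicate 3 of sgKmt2c was just above the lowest sgTrp53 line, and the gene shares part of its span with Cdc23 (log2 fold change -1.02, 95% interval -1.99 to -0.04, limma adjusted p = 0.573; without sgKmt2c replicate 1 -0.61). Kif11 (Eg5), which separates the spindle poles, was at 52.6, 41.0 and 52.6 against 22.4, 50.04 and 48.3 RPKM, and only sgKmt2c replicate 1 was below the sgTrp53 lines. Cenpe, Kif4 and Kif23 had log2 fold changes of -0.65, -0.41 and -0.36.

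The centromere and chromosome group had a median log2 fold change of -0.52 (-0.038 without sgKmt2c replicate 1). That line was the lowest of all 6 lines in 5 of 5 genes (35.9% of all genes). The median gene of the group was at 40.6% of the sgTrp53 mean in it, against 85.6% in replicate 2 and 101.6% in replicate 3. Top2a, topoisomerase II alpha, was at 139, 179.998 and 151 RPKM in the sgTrp53 lines and at 54.9, 145 and 159 in the sgKmt2c lines. Cenpa, the centromeric histone H3 variant, was at 73.6, 71.9 and 73.7 against 25.3, 62.2 and 74.2 RPKM. Birc5 (survivin), a passenger complex subunit, was at 110.1, 103 and 99.9 against 42.4, 85.1 and 104 RPKM. In all 3 genes replicate 3 was inside or just above the range of the sgTrp53 lines.

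Cenpf, a large kinetochore protein, was at 16.2, 14.3 and 21.6 against 8.66, 14.8 and 19.8 RPKM. Mki67 encodes Ki-67, the coat of mitotic chromosomes and a common proliferation marker. Its levels were 69.3, 46.3 and 59.4 RPKM in the sgTrp53 lines and 31.9, 68.6 and 111 in the sgKmt2c lines. The sgKmt2c lines thus held both the lowest and the highest value, with a log2 fold change of 0.12 and a 95% interval from -0.95 to 1.18. The value depended on single lines, at -0.29 without sgKmt2c replicate 3, -0.038 without sgTrp53 replicate 2 and 0.59 without sgKmt2c replicate 1.

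The spindle and microtubule group held 5 negative and 2 positive fold changes, the latter the 2 highest of the 40 (median -0.41, or 0.0082 without sgKmt2c replicate 1). Nusap1, which bundles microtubules near chromatin, lies at chr2:119618298-119651244 and was at 47.4, 59.1 and 50.8 RPKM in the sgTrp53 lines and at 23.4, 37.8 and 36.9 in the sgKmt2c lines. Every sgKmt2c line was below every sgTrp53 line (52.4 ± 5.98 against 32.7 ± 8.07 RPKM, SD, n = 3), with a log2 fold change of -0.69 ± 0.242 (SE) and limma adjusted p = 0.526, and -0.47 (adjusted p = 0.513) without sgKmt2c replicate 1. Dlgap5 (HURP), which stabilizes kinetochore fibres, was at 39.3, 39.6 and 36.4 against 16.8, 28.2 and 27.0 RPKM. Its sgKmt2c lines were at 43.8%, 73.4% and 70.2% of the sgTrp53 mean, much as in Nusap1 (log2 fold change -0.69, limma adjusted p = 0.528; without sgKmt2c replicate 1 -0.46, adjusted p = 0.501). Ccnb2, Nusap1 and Dlgap5 were the lower genes in which sgKmt2c replicate 3 was also at or under 70.4% of the sgTrp53 mean. Tpx2, Hmmr and Prc1, which organize spindle microtubules, had log2 fold changes of -0.58, -0.41 and -0.22.

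Gtse1 had the opposite sign. It encodes a microtubule-binding protein of G2 and mitosis, known in mouse as the p53-inducible gene B99, and lies at chr15:85859707-85876572. Its levels were 14.8, 17.1 and 18.4 RPKM in the sgTrp53 lines and 19.1, 33.6 and 46.9 in the sgKmt2c lines. All 3 sgKmt2c lines were above all sgTrp53 lines, at 114%, 200.1% and 279.7% of their mean, with sgKmt2c replicate 1 only just above. The log2 fold change was 0.86 ± 0.336 (SE), with a 95% interval from 0.06 to 1.66 and limma adjusted p = 0.569, and without sgKmt2c replicate 1 it was 1.20 with adjusted p = 0.242.

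Ckap2, a microtubule-associated protein of the spindle, lies at chr8:22168152-22185819 and was at 22.9, 21.3 and 22.2 RPKM in the sgTrp53 lines and at 19.7, 45.4 and 46.9 in the sgKmt2c lines. sgKmt2c replicates 2 and 3 were at 205% and 211% of the sgTrp53 mean and replicate 1 at 89.1%. The log2 fold change was therefore 0.63 with limma adjusted p = 0.646 over all lines and 1.03 without sgKmt2c replicate 1 (adjusted p = 0.181). In Gtse1 and Ckap2, as in most of the mitotic genes, sgKmt2c replicate 1 had the lowest value of the 3 sgKmt2c lines.

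Cytokinesis was represented by 2 genes with opposite signs. Ect2, the exchange factor that activates RhoA at the cleavage furrow, lies at chr3:27097222-27153878 and was at 406, 305 and 419 RPKM in the sgTrp53 lines and at 227, 137 and 303 in the sgKmt2c lines. The groups did not overlap by a narrow margin, and sgKmt2c replicate 2 was the lowest line (log2 fold change -0.82 ± 0.32 SE, limma adjusted p = 0.569; without sgKmt2c replicate 1 -0.87, adjusted p = 0.55). The table lists a transcript of 675 bases for this gene, so its RPKM is set high against other genes, which does not touch the comparison between lines. Anln (anillin), a scaffold of the contractile ring, was at 45.0, 38.5 and 48.2 against 74.7, 49.3 and 36.7 RPKM. It was the only mitotic gene in which sgKmt2c replicate 1 was the highest of all 6 lines, and its log2 fold change was 0.23, or -0.039 without that line.

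Foxm1, the transcription factor that activates many of these genes late in G2, was at 111, 61.8 and 116 RPKM in the sgTrp53 lines and at 50.9, 81.4 and 107 in the sgKmt2c lines. Its lines overlapped widely, with sgTrp53 replicate 2 between sgKmt2c replicates 1 and 2 (log2 fold change -0.28, 95% interval -1.14 to 0.59).

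**Figure D4:**
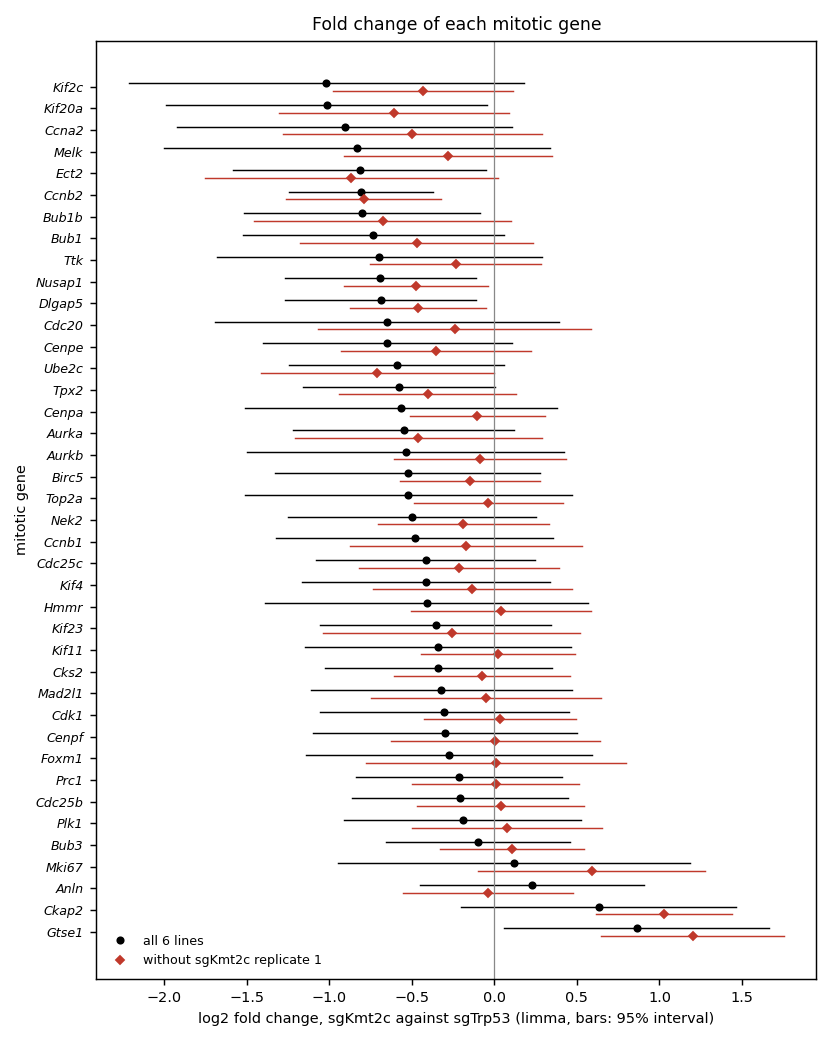
Log2 fold change (sgKmt2c against sgTrp53, limma on log2(RPKM + 1)) of the 40 mitotic genes with 95% intervals, over all 6 lines (black circles) and without sgKmt2c replicate 1 (red diamonds). Of the 40 circles 36 lie below 0, and 28 of the diamonds do.

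**Figure D5:**
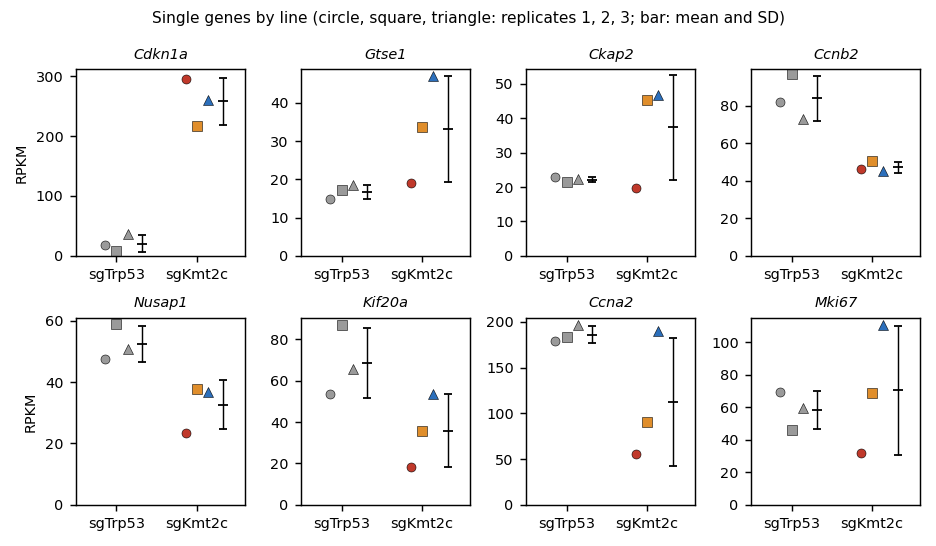
RPKM in each line (circle, square and triangle for replicates 1, 2 and 3; horizontal mark and bar, mean and SD, n = 3) of Cdkn1a, Gtse1, Ckap2, Ccnb2, Nusap1, Kif20a, Ccna2 and Mki67. Cdkn1a is high in all 3 sgKmt2c lines, Ccnb2 is at 46.0, 50.3 and 45.1 RPKM in them, and Ccna2 spreads from 55.4 to 190.1.

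Other lists of the same pathways were set beside the mitotic genes. Of 52 other G2/M genes, 51 had a negative fold change, against 58% of all genes, and their median was -0.47. In limma 0 passed the adjusted threshold and 3 were lower at an unadjusted p under 0.05, Plk4, Cdca8 and Pttg1 (5.77% against 5.34% of all genes). All 52 lay below every sgTrp53 line in sgKmt2c replicate 1, where 44.6% of all genes did. The median gene of the list was at 41.6%, 80.1% and 104% of the sgTrp53 mean in sgKmt2c replicates 1, 2 and 3 (all genes 87.5%, 93.8% and 96.5%). Without sgKmt2c replicate 1, 37 of the 52 were negative (54.4% of all genes), their median was -0.13 and 0 passed the unadjusted threshold. CHR letters were in 33 of the 44 promoters matched for this list (75%).

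The 38 G1/S E2F genes of replication, which are not mitotic, had the lowest median of the lists (-0.64), with 36 negative (58% of all genes). Only Slbp, the histone mRNA stem-loop binding protein, passed the unadjusted threshold downward (2.63% of the list against 5.34% of all genes). It was at 62.9, 73.4 and 70.9 RPKM in the sgTrp53 lines and 16.5, 44.1 and 50.3 in the sgKmt2c lines (limma adjusted p = 0.576). The median G1/S gene was at 27.3% of the sgTrp53 mean in sgKmt2c replicate 1, 85.6% in replicate 2 and 107.8% in replicate 3 (all genes 87.5%, 93.8% and 96.5%). Without sgKmt2c replicate 1 the median was -0.08, with 23 negative (54.4% of all genes). The lower levels of replicate 1 were thus not limited to mitotic genes.

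The next 14 genes encode DREAM, its activating MuvB counterpart or 2 of their relatives and regulators, Rb1 and Dyrk1a. Of these, 12 had a negative fold change, against 58% of all genes, and the median of the 14 was -0.37. Without sgKmt2c replicate 1, 11 of the 14 were negative (54.4% of all genes), with a median of -0.28. By line the median of the 14 was -0.52, -0.39 and 0.03 from the sgTrp53 mean in sgKmt2c replicates 1, 2 and 3. Tfdp2 (DP2), an E2F partner, was at 35.6, 67.4 and 48.0 RPKM in the sgTrp53 lines and at 17.9, 33.6 and 28.8 in the sgKmt2c lines, without overlap (log2 fold change -0.88, limma adjusted p = 0.552). Rbbp4, a MuvB subunit, was at 75.7, 95.5 and 75.1 against 25.8, 54.4 and 68.9 RPKM (log2 fold change -0.81, limma adjusted p = 0.597). Rb1, the pocket protein outside DREAM, was at 80.2, 86.4 and 76.6 against 203, 77.9 and 155 RPKM (log2 fold change 0.73, limma adjusted p = 0.616). Its listed transcript has only 411 bases.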

How the data were processed

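The labels' titles gave each of the 6 libraries its genotype and replicate number. The study describes 3 independent lines per genotype; where lines share an origin, p-values measure only the spread between these samples. Sequencing used a single flow cell with every library in both lanes. Replicates differed beyond sampling noise (chi-square per gene at least 28.5).

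The authors used Trimmomatic, STAR on GRCm38 (mm10) and HTSeq, and deposited RPKM, based on 1 transcript length per gene. No strand setting is given in the sources used here. Of 21065 rows 209 are without values, and 6 columns of other samples were not used, nor was the authors' deposited DESeq2 (1.8.2) comparison (mean count, log2 fold change, error, statistic, p-values).

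limma 3.58.1 (R 4.3.3, lmFit, eBayes with trend, Benjamini-Hochberg) was fitted to log2(RPKM + 1), and fold changes are on this scale. It covered the 11617 genes that reached an RPKM of 1 in 3 or more libraries, all 40 members among them. The fit was first run on simulated data with planted fold changes larger than that of any member. That run does not show the power at the size of the members' fold changes. RPKM times length gave whole reads for 100% of values (tolerance 0.01 read; 1 read at 2 kb was worth 0.0726 to 0.136 RPKM), which limma voom tested as an alternative. Exact permutation tests were two-sided. Other alternatives were pseudocount, filter, scaling, trend, replicate block, each line left out, and sgKmt2c replicates 2 and 3 as a single sample. In all, 12 members overlap another gene, and 5 listed symbols were matched through RefSeq synonyms. The members and lists were chosen with earlier results of these data known. Values per line are given for a fixed set of members, those with an unadjusted p under 0.05 and the 3 lowest and 3 highest fold changes; of other genes, for Trp53, Kmt2c, Cdkn1a, Myc, cell type markers and up to 3 per list with the smallest p.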

Additional observations from a re-analysis of the deposited data

How the results depend on the processing

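No mitotic gene passed an adjusted p under 0.05 under any of the 17 alternatives. Of the single-gene results for the 40 members, Trp53 and Cdkn1a under these alternatives, 694 kept their direction and side of the threshold, 13 (in 11 genes) changed sign and 7, all for Trp53, lost the call. Leaving out 1 line gave 1 to 17 lower (all genes 2.75% to 8.52%) and 0 to 2 higher members (2.10% to 4.19%) at an unadjusted p under 0.05, 7 to 27 lower (14.3% to 21.0%) and 1 to 2 higher members (7.96% to 11.4%) without overlap, and a median log2 fold change from -0.76 to -0.16. With sgKmt2c replicates 2 and 3 as a single sample, the median log2 fold change was -0.62. At an unadjusted p under 0.05 in limma, 9 members were then lower (all genes 5.02%) and 0 higher (3.86%). Without overlap, 19 were lower (17.4%) and 1 higher (11.1%) in that setting. Over the lines left out in turn, log2 fold changes ran from -0.54 to 0.032 for Cdk1, -0.39 to 0.039 for Cdc25b, -0.50 to 0.076 for Plk1, -0.28 to 0.11 for Bub3, -0.54 to 0.022 for Kif11, -0.55 to 0.0055 for Cenpf, -0.43 to 0.0082 for Prc1, -0.76 to 0.042 for Hmmr, -0.57 to 0.012 for Foxm1 and -0.039 to 0.46 for Anln, and the sign turned only without sgKmt2c replicate 1. For Mki67 they ran from -0.29 to 0.59, with -0.038 without sgTrp53 replicate 2, and with sgKmt2c replicates 2 and 3 as a single sample the value was -0.10. The causes were not tested. Other scalings kept 36 negative members, with medians from -0.55 (TPM) to -0.43 (median-of-ratios size factors). Over all genes, the unadjusted calls were 620 lower and 377 higher as deposited and 475 lower and 485 higher with median-of-ratios size factors. In a window of 100 bases before to 50 after the start, 24 promoters held CHR letters (64.9% against 8.59% of all promoters). CCAAT box letters were in 27 (73.0% against 23.4%), TTTAAA or TTTCAA in 13 (35.1% against 11.5%) and E2F letters in 3 (8.11% against 5.60%). The replicate numbers were not taken to pair the lines: deviations of same-numbered lines correlated at 0.19, 0.40 and 0.032, and sgKmt2c replicate 3 did not correlate best with its own number. The replicate block gave 0 adjusted calls among the members and 0 over all genes. Each member value rests on at least 58 reads; the number of lines limits the precision.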
